A study of Mus musculus with 13 samples.

Results

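The visual cycle and retinol-handling genes of the retinal pigment epithelium and Müller glia were followed in mouse retina in which Rpe65, the isomerase of the cycle, had been deleted. The genes were listed by name, with earlier results of these data known: Rpe65, Lrat, Rdh5, Rlbp1, Rgr, Stra6, Ttr, Rdh10 and Rrh. Of these 9, 8 had a row in the table of 29700 nuclear genes, and all 8 passed the filter on low counts that left 16782 genes for testing, Rpe65 through its wild-type counts. Lrat, which encodes the enzyme that esterifies retinol, was not analysed here.

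In the vertebrate eye, light converts the 11-cis-retinal of visual pigments to the all-trans form, and the pigment epithelium turns it back. Retinol enters the epithelium from blood bound to carrier proteins, is esterified, and is isomerised to 11-cis-retinol by RPE65, after which a dehydrogenase makes 11-cis-retinal for return to the photoreceptors. Without RPE65, 11-cis-retinal is not regenerated by this route, and mutations of the human gene cause Leber congenital amaurosis. The pigment epithelium lies against the photoreceptor tips and is separated from the retina at dissection, so that a retinal sample may carry more or less of it.

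RNA from 1 retina per mouse was sequenced in 13 mice. The Rpe65-/- TMB group held 5 mice given tamsulosin, metoprolol and bromocriptine (TMB) in the diet starting at postnatal day 22 and collected at postnatal day 64. The Rpe65-/- vehicle group held 4 mice collected at postnatal day 64 after the base diet alone, and the wild-type group held 4 C57BL/6J mice aged 2 months, also on base diet. Mice were anaesthetised with ketamine and xylazine before collection, and libraries are named here by group, labelled sex (F or M) and number. The Rpe65-/- line carries the loss in every cell. The study describes its strain background as not exactly known but likely for the most part C57BL/6J. Genotype and any difference in background cannot be told apart in a comparison with C57BL/6J. The design text gives 3 wild-type mice while the labels give 4, and all 4 were used. Wild type was the control of both Rpe65-/- groups, so that the values of these comparisons are not independent of each other.

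Nuclear counts per library ranged from 13512155 to 16449989. Rod markers were present throughout, with 45650 to 51270 counts per 1000000 nuclear counts (CPM) summed over 5 genes in TMB, 47090 to 55220 in vehicle and 50900 to 63980 in wild type. In 1 library, vehicle F2, the Y-linked transcript went against the labelled sex. Wild type F4 stood apart across all genes: leaving it out gave 9508 called genes for vehicle against wild type, where all libraries gave 5697. A deposited sample list leaves out wild type M1 and gives the C57BL/6J genotype for vehicle F1, in which Rpe65 had 6 counts. Without wild type M1, 896 genes were called in TMB and 2967 in vehicle, each against wild type. The 4 cone markers summed to 72.6 to 108 CPM in TMB and 86.5 to 120 CPM in vehicle, against 894 to 1016 CPM in wild type, and the part of this difference in the comparisons with wild type was not tested. Summed CPM of 2 lens genes reached 2254 in vehicle M4 and lay between 0.547 and 832 in the other 12 libraries. Nothing in the labels says that mice of a group came from separate litters or cages.

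Rpe65 was the deleted gene. Rgr and Rlbp1 were among the 6 members higher in vehicle than in wild type, and Rlbp1 correlated with Müller glia markers. The promoters of these 3 members are shown. Each is the 250 bases before the RefSeq start (GRCm38.p6), 5′ to 3′ on the strand of the gene, with matches to the searched motifs in capitals, at chr3:159598931-159599180 (plus strand) for Rpe65, chr14:37049015-37049264 (minus strand) for Rgr and chr7:79387028-79387277 (minus strand) for Rlbp1.
Rpe65: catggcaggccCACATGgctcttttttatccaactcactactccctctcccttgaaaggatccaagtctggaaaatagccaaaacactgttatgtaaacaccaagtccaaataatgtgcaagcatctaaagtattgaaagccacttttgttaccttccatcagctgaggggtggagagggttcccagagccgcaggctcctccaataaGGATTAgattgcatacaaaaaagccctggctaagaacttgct
Rgr: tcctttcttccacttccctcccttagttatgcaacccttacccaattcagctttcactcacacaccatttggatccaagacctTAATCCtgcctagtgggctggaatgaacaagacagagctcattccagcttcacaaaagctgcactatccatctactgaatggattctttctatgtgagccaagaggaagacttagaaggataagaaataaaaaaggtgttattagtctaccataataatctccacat
Rlbp1: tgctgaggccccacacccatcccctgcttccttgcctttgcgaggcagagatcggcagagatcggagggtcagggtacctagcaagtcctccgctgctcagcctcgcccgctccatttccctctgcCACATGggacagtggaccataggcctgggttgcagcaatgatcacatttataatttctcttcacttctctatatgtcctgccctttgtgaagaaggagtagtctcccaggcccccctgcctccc

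Motifs were searched on both strands, and none of the 3 overlapped another. The letters GGATTA, the core bound by the homeodomain proteins OTX2 and CRX, began at position -42 from the start of Rpe65 and, as TAATCC, at position -167 from that of Rgr, and in 6.25% of 32851 promoter windows of the same length. The E-box CATGTG began, as CACATG, at position -239 from the start of Rpe65 and at position -124 from that of Rlbp1, and in 12.3% of windows. The E-box CACGTG, a form recognised by MITF, was in none of the 6 members that had a promoter entry and in 6.02% of windows. These matches describe the letters only.

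**Figure D1:**
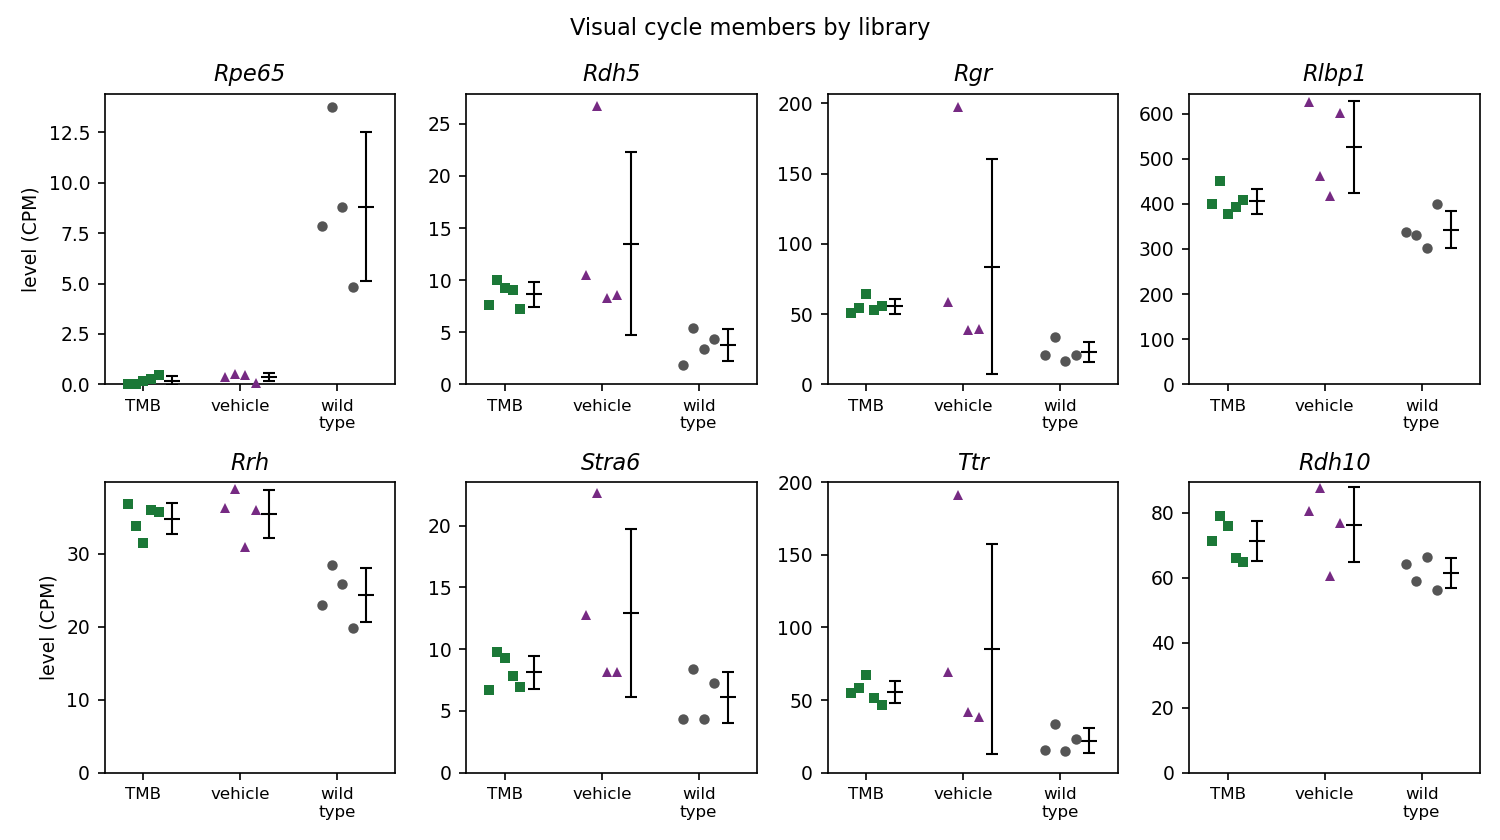
Level in CPM (vertical axis, from 0) of the 8 measured members in each library, with TMB (5 squares), vehicle (4 triangles) and wild type (4 circles) from left to right; the bar beside each group is its mean with SD. Rpe65 was at or below 0.527 CPM in all 9 Rpe65-/- libraries and at or above 4.84 CPM in wild type, and vehicle F2 held the highest value of Rdh5, Rgr, Stra6 and Ttr.

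Rpe65 checked the labels: it was nearly absent from every Rpe65-/- library and low, but present, in every wild-type library. Rpe65 had 0, 0, 3, 4 and 7 counts in TMB F1, F3, F4, M5 and M6, and 6, 8, 6 and 1 counts in vehicle F1, F2, M4 and M5, against 106, 226, 135 and 72 counts in wild type M1, M2, F3 and F4. The groups did not overlap: the highest Rpe65-/- library was at 0.527 CPM (vehicle F2) and the lowest wild-type library at 4.84 CPM (F4). A count of 0 allowed up to 0.217 CPM in TMB F1 and 0.219 CPM in TMB F3, counting error only, with 3 counts as the limit. The fitted log2 difference from wild type was -5.55 in TMB and -4.73 in vehicle. The genotype and the filter, which Rpe65 passed through its wild-type counts, fixed this direction, so it is given as a description with no test and Rpe65 is left out of the counts of members called. Between TMB and vehicle, on 14 and 21 counts in all and thus near the floor, the fitted log2 difference was -0.82, also given as a description. None of the sources used here says which exons the deletion removes, and the few remaining counts were not assigned to a position. The gene lies at chr3:159599175-159625321 (GRCm38, plus strand) and overlaps no other gene of GENCODE M21.

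Retinol is brought to the epithelium by transthyretin (Ttr), which carries the retinol-binding protein in blood and is also made by the epithelium, and is taken up through the receptor Stra6. Both were higher in vehicle than in wild type. Ttr had 54.7, 58.4, 67.1, 51.4 and 46.6 CPM in TMB F1, F3, F4, M5 and M6, and 69.2, 191, 41.8 and 38.1 CPM in vehicle F1, F2, M4 and M5, against 15.9, 33.9, 15.03 and 23.1 CPM in wild type M1, M2, F3 and F4. Every Rpe65-/- library was above every wild-type library, and vehicle F2 was far above the rest. The log2 difference of Ttr was 1.88 ± 0.43 for vehicle against wild type (adjusted p = 0.00659) and 1.26 for TMB against wild type (adjusted p = 0.0643). Without vehicle F2 these were 1.07 (adjusted p = 0.00980) and 1.26 (adjusted p = 0.00320).

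Stra6 had 6.73, 9.80, 9.27, 7.83 and 6.97 CPM in TMB and 12.8, 22.6, 8.13 and 8.14 CPM in vehicle, against 4.37, 8.39, 4.36 and 7.27 CPM in wild type, in the same order of libraries. The Rpe65-/- groups overlapped wild type, and vehicle F1 and F2 alone stood above all other libraries. Stra6 was higher in vehicle by 1.001 ± 0.31 on the log2 scale (adjusted p = 0.0248), and the call was lost without vehicle F1 (1.02, adjusted p = 0.0522), vehicle F2 (0.56, adjusted p = 0.0872), wild type M1 (0.88, adjusted p = 0.0788) or wild type F3 (0.88, adjusted p = 0.0802). In TMB the difference from wild type was 0.33 (adjusted p = 0.508). The gene spans of Ccdc33 and Gm16131 overlap Stra6 but share no exon base with it.

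Rdh5, the 11-cis-retinol dehydrogenase that follows RPE65 in the cycle, was higher in vehicle than in wild type, and its TMB values did not reach down to those of wild type. It had 7.60, 10.02, 9.21, 9.09 and 7.18 CPM in TMB and 10.5, 26.7, 8.27 and 8.58 CPM in vehicle, against 1.85, 5.41, 3.38 and 4.37 CPM in wild type. All 9 Rpe65-/- libraries lay above the wild-type range. The log2 difference was 1.76 ± 0.37 for vehicle against wild type (adjusted p = 0.00457), and 1.17 without vehicle F2 (adjusted p = 0.00679). For TMB against wild type it was 1.11 (adjusted p = 0.0634), which became 1.11 with adjusted p = 0.00733 without vehicle F2 and 1.18 with adjusted p = 0.0232 without wild type F4. Rdh5 (chr10:128913593-128922888, minus strand) shares 720 exon bases, 25.6% of its exon length, with Bloc1s1, and counts in the shared bases could not be assigned to either gene.

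Rgr encodes an opsin of the pigment epithelium and Müller glia that binds all-trans-retinal. Rgr had 50.5, 54.5, 64.2, 52.7 and 56.1 CPM in TMB and 58.9, 198, 39.0 and 39.3 CPM in vehicle, against 20.9, 33.7, 16.8 and 20.7 CPM in wild type. Again every Rpe65-/- library exceeded the wild-type range, and the TMB libraries lay close together (SD 5.21 CPM, n = 5) while the vehicle libraries did not (SD 76.5 CPM, n = 4), through F2 (SD 11.4 CPM without it, n = 3). The log2 difference was 1.79 ± 0.43 for vehicle against wild type (adjusted p = 0.00839) and 0.89 without vehicle F2 (adjusted p = 0.00806). It was 1.19 for TMB against wild type (adjusted p = 0.0797), and 1.20 with adjusted p = 0.000697 without vehicle F2 or 1.15 with adjusted p = 0.0491 without wild type F4. Rgr lies at chr14:37034909-37048964 on the minus strand.

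Rlbp1 encodes the carrier protein CRALBP, which binds 11-cis-retinoids in the pigment epithelium and in Müller glia. It was the most abundant member, with 399.8, 449.9, 377, 393 and 409 CPM in TMB and 625, 462, 417 and 601 CPM in vehicle, against 337, 330.3, 303 and 400.0 CPM in wild type. Vehicle stood wholly above wild type, whereas TMB F1, F4 and M5 lay below the highest wild-type library. The log2 difference was 0.53 ± 0.12 for vehicle against wild type (adjusted p = 0.00659) and 0.16 for TMB against wild type (adjusted p = 0.380). For TMB against vehicle it was -0.36 with a 95% interval of -0.61 to -0.12 (adjusted p = 0.253), and this member alone passed the threshold in that comparison without wild type F4 (-0.36, adjusted p = 0.0207).

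The remaining members were an opsin and a dehydrogenase. Rrh encodes peropsin, an opsin of the pigment epithelium. It had 36.9, 33.8, 31.5, 36.0 and 35.7 CPM in TMB and 36.2, 38.9, 31.0 and 36.0 CPM in vehicle, against 23.0, 28.5, 25.9 and 19.9 CPM in wild type. Both Rpe65-/- groups lay wholly above wild type and close to each other. Rrh was higher by 0.44 ± 0.11 in TMB (adjusted p = 0.0229) and by 0.46 ± 0.12 in vehicle (adjusted p = 0.0111) on the log2 scale. The TMB call was lost without wild type M1 (0.41, adjusted p = 0.0765), TMB M5 (0.42, adjusted p = 0.0520) or TMB M6 (0.42, adjusted p = 0.0537).

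Rdh10, a retinol dehydrogenase of the pigment epithelium and Müller glia, had 71.2, 78.9, 75.8, 66.0 and 64.8 CPM in TMB and 80.5, 87.6, 60.4 and 76.9 CPM in vehicle, against 64.1, 59.1, 66.4 and 56.2 CPM in wild type. Its groups overlapped in every comparison. The log2 difference was 0.23 ± 0.11 for vehicle against wild type (95% interval -0.011 to 0.46, adjusted p = 0.121), and 0.33 without vehicle M4 (adjusted p = 0.0291). It was 0.13 for TMB against wild type (adjusted p = 0.445).

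Per kilobase of exon, wild-type libraries held Rlbp1 at 116 ± 13.9 CPM (SD, n = 4), Ttr at 18.5 ± 7.34 and Rdh10 at 14.8 ± 1.11. Rgr (4.81 ± 1.54), Rpe65 (4.55 ± 1.91) and Rrh (4.12 ± 0.631) followed and differed from each other by less than the SD of Rgr, and Rdh5 (1.34 ± 0.539) and Stra6 (1.05 ± 0.352) at the low end by less than either SD. Ttr and Rdh10 also overlapped. In TMB the order on this scale was Rlbp1 (137), Ttr (46.9), Rdh10 (17.1), Rgr (11.6), Rrh (5.88), Rdh5 (3.07), Stra6 (1.39) and Rpe65 (0.0961), and neighbours were further apart than their SDs. In vehicle it was the same, with Rlbp1 at 178 and Rpe65 at 0.180 CPM per kilobase, but from Ttr (71.7 ± 60.8) down to Stra6 (2.21 ± 1.17) each neighbouring pair differed by less than the larger of its SDs.

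The comparison of vehicle with wild type shows what the members looked like in untreated Rpe65-/- retina. Of the 7 measured members other than Rpe65, 6 were higher (Ttr, Stra6, Rdh5, Rgr, Rlbp1 and Rrh) and Rdh10 did not pass. Over all genes 33.9% were called in this comparison (15.7% higher and 18.3% lower). The median log2 difference of the 7 members was 1.001, beside 0.02 over all genes tested, and 0.58 without vehicle F2. In 5 of the 7 the groups did not overlap, as in 19.4% of all genes. Without vehicle F2, 5 of the 7 were higher, beside 30.6% of all genes called, and without wild type M1 5 of the 7, beside 17.4%. Without wild type F4 the 6 were called again, beside 55.6% of all genes. In bulk RNA, more cells of a type and more RNA per cell cannot be told apart.

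Whether the members differed in retinas of TMB-treated mice was asked against the same wild-type libraries. Of the 7 members other than Rpe65, Rrh was higher and the other 6 did not pass, beside 9.53% of all genes called (4.51% higher and 5.02% lower). The median log2 difference was 0.44, beside -0.0027 over all genes. In 4 of the 7 (Rdh5, Rgr, Ttr and Rrh) the groups did not overlap, as in 11.5% of all genes. Without vehicle F2, 4 of the 7 were higher, with Rdh5, Rgr and Ttr added, beside 8.87% of all genes called. Without wild type F4 the same 4 were higher, but 38.0% of all genes were called. Without wild type M1 none of the 7 was called, beside 5.25% of all genes. Leaving out a vehicle library changes this comparison only through the fit that the groups share.

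The effect of TMB within Rpe65-/- retina was given by TMB against vehicle. None of the 7 members other than Rpe65 was called, and 0.0% of all genes were (0 of 16782 by edgeR, 3064 at an unadjusted p under 0.05, and 64 by DESeq2). The fitted log2 differences of the 7 members other than Rpe65 were all below 0, with a median of -0.60 beside 0.0005 over all genes, but -0.0030 without vehicle F2. The groups overlapped in all 7 of these members (in 14.2% of all genes they did not). The 95% intervals, from the SE and the t distribution with the residual degrees of freedom of the fit and not adjusted, lay below 0 for Rlbp1 and Stra6 (-0.67, -1.28 to -0.057) and included 0 for Rdh5 (-0.65, -1.35 to 0.045). Vehicle F2 decided the direction of several: without it Rgr was 0.31, Ttr 0.19 and Rrh 0.04 higher in TMB, Rdh5 was at -0.06 and Stra6 at -0.23. Without wild type F4, 2741 of 17092 genes and 1 member, Rlbp1, passed. The narrowest intervals were those of Rdh10 (-0.32 to 0.13) and Rrh (-0.26 to 0.21).

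**Figure D2:**
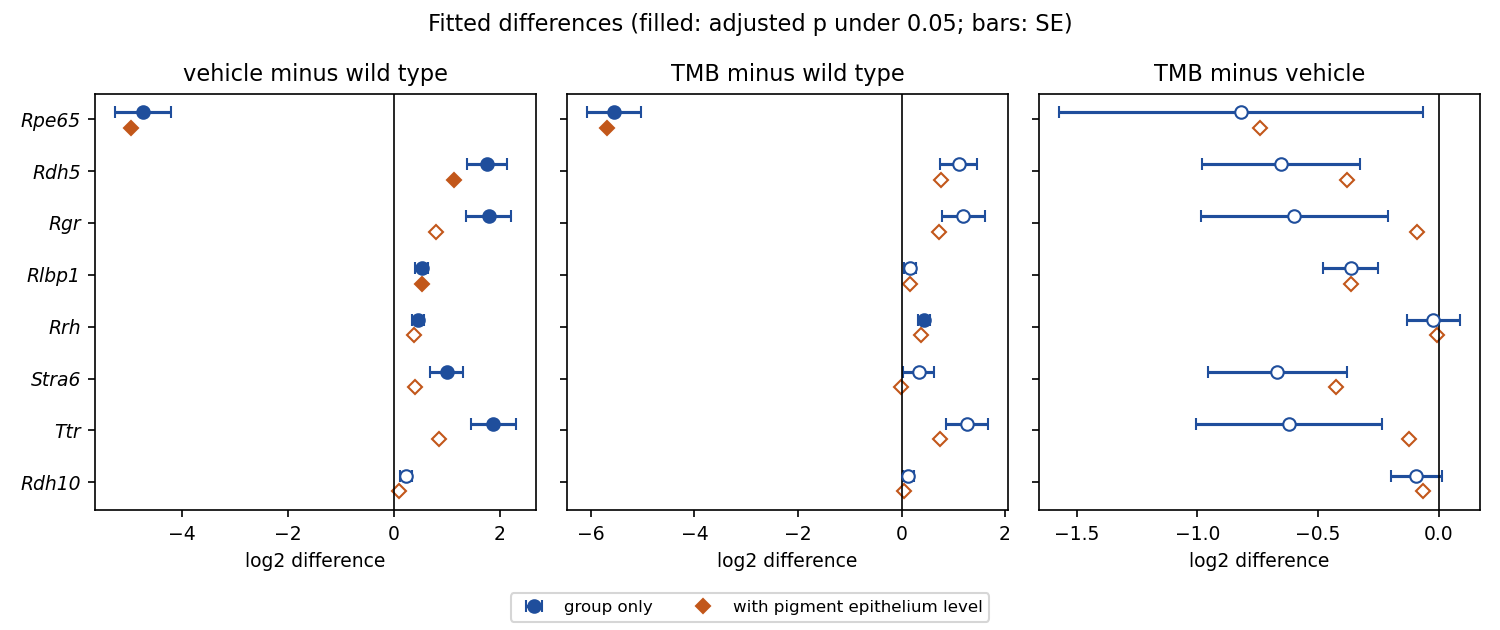
Fitted log2 difference (horizontal axis) of each member for vehicle minus wild type, TMB minus wild type and TMB minus vehicle, with circles and SE bars for the fit by group and diamonds for the fit with the pigment epithelium level as a covariate; filled symbols have an adjusted p under 0.05. Rpe65, the deleted gene, is shown as a description. Its filled symbols against wild type are not read as calls, since the genotype fixed its direction. Among the other members, filled symbols remain with the covariate for Rdh5 and Rlbp1 in vehicle minus wild type. With the covariate these members have no filled symbol in TMB minus wild type or in TMB minus vehicle.

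The amount of pigment epithelium in each retina was estimated from 19 marker genes that include none of the members, of which 18 were in the table. The level of a library is the mean over these markers of log2 CPM relative to the mean of each gene over the 13 libraries. It was 0.76, 0.18, 0.18, -0.36 and -0.20 in TMB F1, F3, F4, M5 and M6, and 0.53, 1.01, -0.19 and -0.39 in vehicle F1, F2, M4 and M5, against -0.42, -0.11, -0.66 and -0.35 in wild type M1, M2, F3 and F4. Summed over the 18 markers it came to 184 to 383 CPM in TMB and 196 to 334 CPM in vehicle, against 154 to 217 CPM in wild type, and no marker was at 0 in any library. The 5 Rpe65-/- libraries labelled female all lay above the 4 labelled male, 0.18 to 1.01 against -0.39 to -0.19. These include vehicle F2, whose Y-linked transcript went against its label, and in wild type the labels showed no such order. The level was 0.50 higher in TMB than in wild type (exact permutation test, two-sided, p = 0.0952, adjusted p = 0.257 over 3 comparisons) and 0.62 higher in vehicle than in wild type (p = 0.171, adjusted p = 0.257, exact permutation test), or 0.37 without vehicle F2 (adjusted p = 0.514). Between TMB and vehicle it was -0.13 (exact permutation p = 0.746), and 0.13 without vehicle F2.

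The markers did not move as a unit, and the level gave each the same weight. Best1, Krt8, Cdh3, Slc45a2 and Kcnj13 were low, with means of 0.399 to 0.871 CPM in wild type. Enpp2 (67.8 CPM) and Krt18 (30.1 CPM) had the highest means there and went in opposite directions in vehicle. Of the 18, Slc16a8, Slc6a20a and Krt18 were higher and Enpp2 lower in vehicle than in wild type, and the first 3 were higher in TMB too, while none passed between TMB and vehicle. The share higher was 16.7% of the markers in either comparison, beside 15.7% of all genes in vehicle and 4.51% in TMB, and the share called in vehicle was 22.2%, beside 33.9% of all genes. Slc16a8, the lactate transporter of the epithelium, was higher by 1.33 in TMB (adjusted p = 0.0484) and 2.40 in vehicle (adjusted p = 0.00127), and the keratin gene Krt18 by 1.09 in TMB (adjusted p = 6.93e-05) and 1.26 in vehicle (adjusted p = 2.54e-05), on the log2 scale. Slc6a20a, an amino acid transporter, was higher by 1.20 in TMB (adjusted p = 0.0253) and 1.37 in vehicle (adjusted p = 0.00764). Enpp2, the gene of autotaxin, was lower by -0.53 in vehicle (adjusted p = 0.0169). The 6 measured melanin genes gave a level of -0.86 to 1.49 in TMB and -0.90 to 1.46 in vehicle, which enclosed the wild-type range of -0.53 to -0.03. For the 12 markers outside melanin synthesis, every Rpe65-/- library, -0.13 to 0.79, was above every wild-type library, -0.72 to -0.15. On these 12 alone the level was 0.62 higher in TMB and 0.74 higher in vehicle than in wild type (adjusted p = 0.0429 for both, exact permutation tests).

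**Figure D3:**
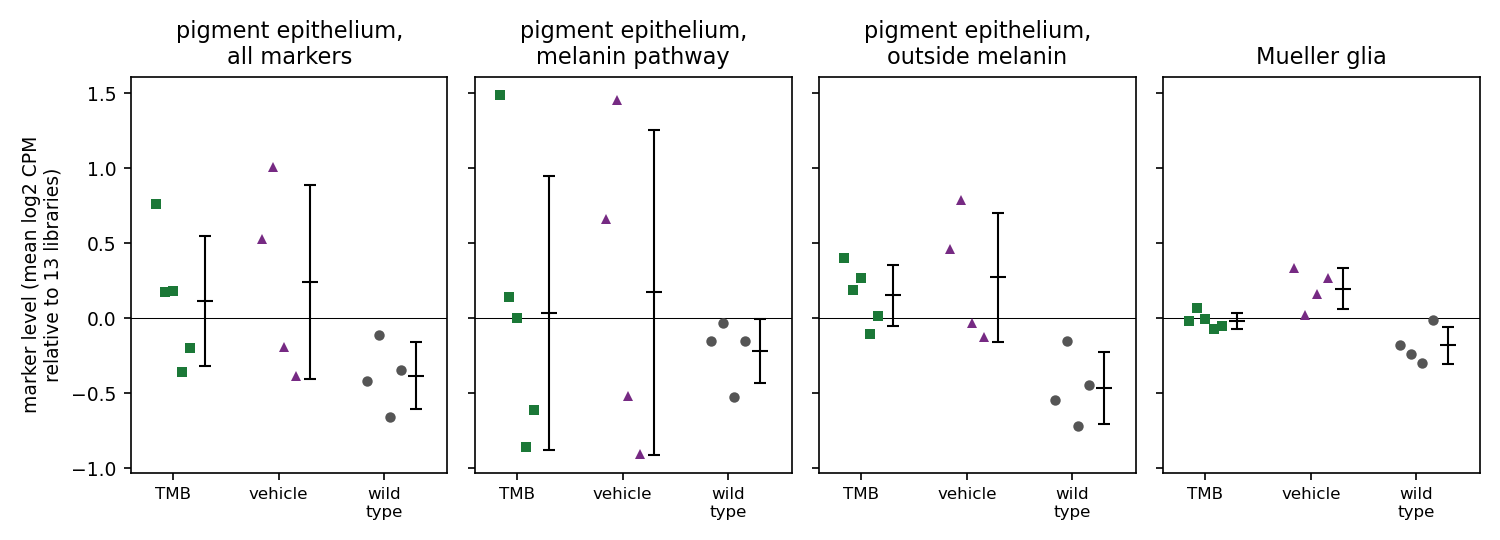
Marker level of each library (mean log2 CPM relative to the 13 libraries) for all pigment epithelium markers, its melanin genes, its markers outside melanin synthesis and Müller glia, with TMB (5 squares), vehicle (4 triangles) and wild type (4 circles); bars are the group mean with SD. The melanin genes spread from -0.90 to 1.49 in Rpe65-/- around the wild-type libraries, whereas the markers outside melanin synthesis were higher in all 9 Rpe65-/- libraries.

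With the pigment epithelium level as a covariate, 2 of the 7 members other than Rpe65 were called for vehicle against wild type, beside 21.4% of all genes. These were Rdh5 (1.14, adjusted p = 0.0349) and Rlbp1 (0.53, adjusted p = 0.0252). Ttr was at 0.86 (adjusted p = 0.0545), Rgr at 0.81 (adjusted p = 0.0954), Rrh at 0.39 (adjusted p = 0.0554) and Stra6 at 0.41 (adjusted p = 0.270). For TMB against wild type none of the 7 was called, beside 5.76% of all genes, and Rrh was at 0.38 (adjusted p = 0.0878). No member and no gene was called for TMB against vehicle, where Rgr was at -0.09 and Ttr at -0.12; 2881 genes had an unadjusted p under 0.05.

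Subtracting the level from the log2 CPM of a member, library by library, set each member against the epithelium in the same retina. Of 21 such tests of members other than Rpe65, 5 had an unadjusted p under 0.05. None had an adjusted p under 0.05 (adjusted over 24 tests, Rpe65 included); the smallest two-sided p that the exact permutation test allows is 0.0159 for 5 against 4 libraries and 0.0286 for 4 against 4. In vehicle, Rdh5 was 1.02, Ttr 0.99 and Rgr 0.83 above wild type, each without overlap (exact permutation p = 0.0286, adjusted p = 0.109 for each). In TMB, Ttr was 0.83 and Rgr 0.74 above wild type (exact permutation p = 0.0317, adjusted p = 0.109 for both), with overlap only through TMB F1, which had the highest level of its group. Rrh, higher in both groups by CPM, was at -0.05 in TMB and -0.16 in vehicle on this scale (exact permutation p = 0.825 and 0.657).

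TMB M5 and M6 and vehicle M4 and M5 are the 4 Rpe65-/- libraries labelled male. They had levels of -0.39 to -0.19, within the wild-type range of -0.66 to -0.11. Taking them together was not planned, and vehicle F2, whose Y-linked transcript went against its label, is not among them. In these 4 libraries Rdh5 had 7.18 to 9.09 CPM, against 1.85 to 5.41 CPM in wild type, Rgr 39.0 to 56.1 against 16.8 to 33.7 CPM, Ttr 38.1 to 51.4 against 15.03 to 33.9 CPM and Rrh 31.0 to 36.0 against 19.9 to 28.5 CPM. None of these ranges overlapped; of all genes tested, 9.65% lay wholly above wild type in these 4 libraries and 3.97% wholly below. The melanin level of the same libraries (-0.90 to -0.52) was near or below the lowest of wild type (-0.53 to -0.03). Stra6 (6.97 to 8.14 against 4.36 to 8.39 CPM), Rdh10 (60.4 to 76.9 against 56.2 to 66.4 CPM) and Rlbp1 (393 to 601 against 303 to 400.0 CPM) overlapped wild type. The level of their markers outside melanin synthesis (-0.13 to 0.01) was above that of wild type (-0.72 to -0.15). The part of the amount of epithelium in the values of these libraries was not tested.

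**Figure D4:**
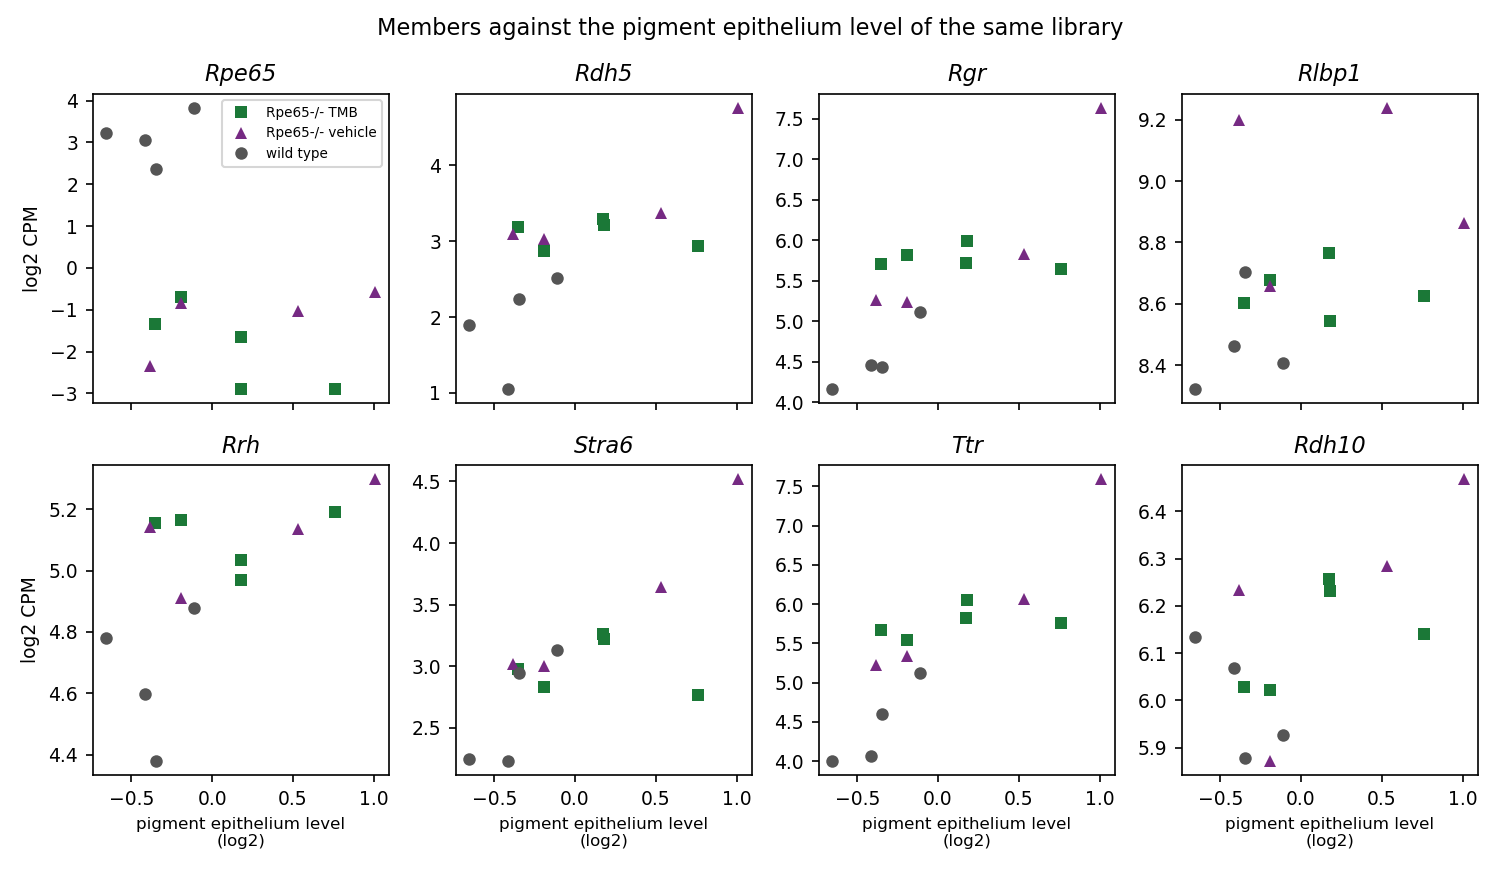
Log2 CPM of each member (vertical axis, prior count 2) against the pigment epithelium level of the same library (horizontal axis, log2), for TMB (5 squares), vehicle (4 triangles) and wild type (4 circles). Vehicle F2, at a level of 1.01, is the highest point for Rdh5, Rgr, Stra6, Ttr, Rrh and Rdh10 but not for Rlbp1, and Rpe65-/- points with levels like those of wild type sit above wild type for Rdh5, Rgr, Ttr and Rrh.

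The members were then set against the marker levels within groups. Over the 13 libraries, the permutations for both marker levels shuffled the deviations across groups and not within them. The SD of the pigment epithelium level was 0.647 in vehicle, 0.432 in TMB and 0.225 in wild type. The permutation p-values over the 13 libraries may therefore be too small. Over 13 libraries, as deviations from the group means, Ttr had r = 0.791 with the pigment epithelium level (permutation p = 0.00066, adjusted p = 0.0139 over 21 relations; Spearman rho 0.786, permutation p = 0.00228, adjusted p = 0.0291). Without vehicle F2 and M5, the libraries farthest from the median level, it was 0.587. Rgr had r = 0.718 (permutation p = 0.00341, adjusted p = 0.0179) but rho 0.478 (permutation p = 0.1, adjusted p = 0.282), and r = 0.423 without these libraries. Stra6 had r = 0.684 (permutation p = 0.0101, adjusted p = 0.0353), rho 0.654 (permutation p = 0.0186, adjusted p = 0.0974), and r = 0.403 without them. For Rdh5 r was 0.577 (permutation p = 0.038, adjusted p = 0.0855; rho 0.544, permutation p = 0.0584) and 0.231 without them. Over the 13 libraries the relations of Rgr, Stra6 and Rdh5 thus rested in part on these libraries. Rdh10 (r = 0.504, permutation p = 0.0794, adjusted p = 0.139; rho 0.456), Rrh (r = 0.321, permutation p = 0.285, adjusted p = 0.399; rho 0.28) and Rpe65 (r = -0.027, permutation p = 0.929; rho 0.0715) did not pass, and stood at 0.414, 0.221 and -0.533 without them. In the 9 Rpe65-/- libraries alone Ttr had r = 0.791 (exact permutation p = 0.00314, adjusted p = 0.0179; rho 0.833, exact permutation p = 0.00827, adjusted p = 0.0579), and 0.849 without TMB F1 and vehicle F2. In the same 9 libraries Rgr had r = 0.704 (exact permutation p = 0.016, adjusted p = 0.0480; rho 0.567, adjusted p = 0.282), and 0.595 without this pair. Stra6 had r = 0.654 (exact permutation p = 0.0407, adjusted p = 0.0855; rho 0.4) and Rdh5 r = 0.637 (exact permutation p = 0.0375, adjusted p = 0.0855; rho 0.467), which were 0.910 and 0.703 without the pair.

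Rlbp1 had r = 0.025 with the pigment epithelium level (permutation p = 0.933; rho -0.0055, permutation p = 0.993), but 0.430 without vehicle F2 and M5, which is close to the values of Rgr and Stra6 without them. It correlated with the Müller glia level, read from 11 of 12 marker genes (r = 0.778, permutation p = 0.00191, adjusted p = 0.0179; rho 0.775, permutation p = 0.00277, adjusted p = 0.0291). The value was 0.763 without vehicle F2 and wild type F4, the libraries farthest from the median glial level. In the 9 Rpe65-/- libraries it was r = 0.860 (exact permutation p = 0.00726, adjusted p = 0.0305), but 0.252 without vehicle F1 and M5. Over the 13 libraries Rgr had r = -0.486 with the Müller glia level (permutation p = 0.0937, adjusted p = 0.151). Rdh10 had r = -0.186 with it (permutation p = 0.544, adjusted p = 0.672). The 11 markers summed to 4864 to 5451 CPM in TMB and 4928 to 6934 CPM in vehicle, against 4076 to 5166 CPM in wild type. The Müller glia level was -0.07 to 0.07 in TMB and 0.02 to 0.34 in vehicle, against -0.29 to -0.01 in wild type. It was 0.38 higher in vehicle than in wild type (exact permutation p = 0.0286, adjusted p = 0.0476), 0.16 higher in TMB than in wild type (p = 0.0635, adjusted p = 0.0635, exact permutation test) and 0.21 lower in TMB than in vehicle (difference -0.21, exact permutation p = 0.0317, adjusted p = 0.0476). Relative to that level, Rlbp1 was 0.14 higher in vehicle than in wild type (exact permutation p = 0.2) and 0.0064 higher in TMB than in wild type (exact permutation p = 0.857). Rgr was 1.08 above wild type in vehicle on this scale (exact permutation p = 0.0857). In TMB it was 1.07 above, without overlap (exact permutation p = 0.0159, adjusted p = 0.143). Rdh10 was at -0.16 in vehicle and -0.030 in TMB (exact permutation p = 0.486 and 0.762). Of the 11 Müller glia markers, 5 (45.5%) were higher in vehicle than in wild type, beside 15.7% of all genes, and 1 (9.09%), Car14, was higher in TMB than in wild type, beside 4.51%. The part of either cell type in these differences was not tested beyond these values.

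Among the members themselves, Ttr, Rgr, Stra6 and Rdh5 were the most alike within groups. As a description over 13 libraries that share groups and depth, r was 0.964 for Rgr and Ttr, 0.958 for Stra6 and Ttr, 0.918 for Rdh5 and Stra6 and 0.827 for Rdh5 and Rgr, while Rlbp1 had r of -0.139 to 0.0972 with these 4. Vehicle F2 was far above its group in the 4 genes, and without it the values were 0.895 for Rgr and Ttr, 0.927 for Stra6 and Ttr, 0.820 for Rdh5 and Stra6 and 0.506 for Rdh5 and Rgr, while Rlbp1 had 0.199 to 0.416 with the 4. Rrh had r of 0.252 to 0.479 with them, and -0.0652 to 0.294 without vehicle F2. The genes most like a member by this measure were Car12, a carbonic anhydrase, for Rdh5 (r = 0.946) and Ttr (r = 0.91), Pde6h, a cone phosphodiesterase subunit, for Rgr (r = 0.902), Zfp324 for Stra6 (r = 0.936), Stk32c for Rlbp1 (r = 0.972), Glrx, a glutaredoxin, for Rdh10 (r = 0.914) and Meioc for Rrh (r = 0.928). Without vehicle F2, Pde6h with Rgr was at 0.645, Car12 with Ttr at 0.733 and the other 5 pairs at 0.868 to 0.971. For Rpe65, on log2 CPM itself with group means kept, Tac2, a tachykinin gene, had r = 0.956. This r carries the difference between Rpe65-/- and wild type, which the genotype fixed for Rpe65. Of the 3 most like genes of each member, none was among the pigment epithelium markers.

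Of 24 other retinoid genes, 21 were tested. Against wild type, 1 was higher and 4 lower in TMB (23.8% called, beside 9.53% of all genes), and 3 were higher and 3 lower in vehicle (28.6% called, beside 33.9% of all genes), with medians of -0.11 and -0.08 on the log2 scale, and none passed between TMB and vehicle. The photoreceptor enzymes that reduce all-trans-retinal went in opposite directions. Rdh8, of outer segments, had a mean of 138 CPM in TMB and 139 CPM in vehicle, against 85.4 CPM in wild type (0.61 ± 0.10 on the log2 scale in each, adjusted p = 0.00111 and 0.00133). Rdh12, of inner segments, had 302 CPM in TMB and 294 CPM in vehicle, against 372 CPM in wild type (-0.38 ± 0.08, adjusted p = 0.00629, and -0.43 ± 0.08, adjusted p = 0.00303). Rdh11 was lower by -0.34 in TMB (adjusted p = 0.0217) and -0.54 in vehicle (adjusted p = 0.00125).

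Cyp26a1, which breaks down retinoic acid, had a mean of 0.644 CPM in TMB and 1.16 CPM in vehicle, against 2.31 CPM in wild type, and was lower by -1.91 in TMB (adjusted p = 0.00143) and -1.08 in vehicle (adjusted p = 0.0212). The carotenoid oxygenase gene Bco2 was higher in vehicle by 0.83 (adjusted p = 0.0113) and stood at 0.66 in TMB (adjusted p = 0.0559). Rdh14 was lower in TMB (-0.37, adjusted p = 0.0344).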

How the data were processed

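Bulk RNA-seq of polyadenylated RNA was available for 13 mouse retinas. Per the submitters' processing notes and the study's methods, the authors trimmed reads with Trimmomatic, aligned them with STAR to GRCm38 and counted them with HTSeq; the deposited unit is raw counts per gene. The handling of read strand in counting was not given in the sources used here. The nuclear table also holds the authors' DESeq2 fold changes and p-values, which were not used, and 4 further wild-type columns, identical to those analysed and not used. The mitochondrial table, a table of the most expressed genes and the sample lists were not used.

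Counts were tested with edgeR 4.0.16 in R 4.3.3 (quasi-likelihood F test, TMM, filterByExpr by group, all 13 libraries in 1 fit, Benjamini-Hochberg adjusted p under 0.05 over 16782 genes). Intervals of a log2 difference used the t distribution with 15.3 degrees of freedom. CPM are counts per 1000000 nuclear counts; marker levels used log2 CPM with TMM and a prior count of 2. Single values were compared by exact permutation tests (scipy 1.17.1), correlations by permutation over all libraries used and not within groups. On simulated counts for vehicle against wild type (16537 genes) edgeR recovered 84.3% of 2-fold and 99.1% of 4-fold changes, with 4.66% false calls. The simulation had 200 changed genes, a spread set beforehand and no library far from its group, so these rates need not hold for the real counts. Alternatives were DESeq2 1.42.0, RLE size factors, no filter, a replicate block, the pigment epithelium level as covariate, other marker lists, a prior count of 0.5, and leaving out each library; leaving out vehicle F2 with wild type F4, or vehicle F1 with F2, was added after seeing the data. Members and lists were chosen with earlier results of these data known. All members are described; up to 4 called genes per comparison with the smallest adjusted p were named from the other retinoid genes and from the pigment epithelium markers, and other called genes of these lists were named after their values were seen. The values of 1 called retinoid gene are not reported here. For each member the genes most like it by r were taken from its 3 best. P-values measure the spread between these mice only. Gene positions are from the deposited table (GRCm38) and matched GENCODE M21 for all 8 measured members; 6 of 8 had a RefSeq promoter entry.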

Additional observations from a re-analysis of the deposited data

Results flagged for a closer look

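Among 27 groups of 4 or 5 libraries examined for a sample far from the others, 2 were marked. Both marks fell on vehicle F2, so they are not independent of each other. In vehicle, Rdh5 was at 26.7 CPM in F2, against 8.27 to 10.5 CPM in the other 3 libraries. Rgr was at 198 CPM in the same library, against 39.0 to 58.9 CPM in the others. Vehicle F2 also had the highest pigment epithelium level (1.01) and the highest level of choroid, sclera and vessel markers (1.49), and is the library whose Y-linked transcript went against its label; the part of these in its values was not tested.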

How the results depend on the processing

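Counting error was largest for Rpe65 in Rpe65-/- (0 to 8 counts) and for Rdh5 in wild type (25 to 89 counts). Of 16782 genes, 5697 were called for vehicle against wild type, 1600 for TMB against wild type and 0 for TMB against vehicle. Counts of members here are of the 7 other than Rpe65, which was lower against wild type in every fit. With the pigment epithelium level as covariate 3592, 967 and 0 genes (21.4%, 5.76% and 0.0%) and 2, 0 and 0 members were called. Stra6 in TMB against wild type then turned to -0.015. Same-numbered libraries did not deviate together (r -0.171 to 0.252), so that the numbers do not pair them. With a replicate block 2224, 567 and 0 genes (13.3%, 3.38% and 0.0%) and 5, 4 and 0 members were called. Rgr (0.14), Ttr (0.12) and Rrh (0.015) then turned positive in TMB against vehicle. The block also ended the call of Rlbp1 in vehicle against wild type (0.49, adjusted p = 0.0510). Without a filter 3 members were called in TMB against wild type, beside 4.57% of all genes. In TMB against vehicle 2 genes were called without a filter, where DESeq2 called 64.

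Leaving out each library gave 2849 (without wild type F3) to 9508 (without wild type F4) genes for vehicle against wild type. For TMB against wild type it gave 896 (without wild type M1) to 6490 (without wild type F4) genes. For TMB against vehicle it gave 0 to 2741 genes (the highest again without F4). Of the 7 members other than Rpe65, 5 to 7, 0 to 4 and 0 to 1 were called in these comparisons. Without vehicle F2 and wild type F4 together, 9521, 6665 and 3436 genes (55.9%, 39.1% and 20.2%) and 6, 4 and 1 members were called. TMB against vehicle then gave 0.31 for Rgr, 0.19 for Ttr and 0.038 for Rrh. Without vehicle F1 and F2, 1831 genes (10.5%) and 2 members, Rdh5 and Rlbp1, were called for vehicle against wild type. No longer passing there were Rgr (0.67), Ttr (0.77), Stra6 (0.32) and Rrh (0.37). For TMB against wild type 4 members were called in that fit, beside 7.42% of all genes. Rgr (0.52), Ttr (0.49), Rdh5 (0.043), Stra6 (0.009), Rdh10 (0.064) and Rrh (0.065) then turned positive in TMB against vehicle. The range in that comparison over single libraries was -0.84 to 0.31 for Rgr, -0.87 to 0.19 for Ttr and -0.089 to 0.039 for Rrh. The cause of these shifts was not tested.

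The pigment epithelium level differed with the marker list: 0.74 for vehicle and 0.62 for TMB against wild type passed on markers outside melanin synthesis. Without single libraries, TMB against vehicle ranged from -0.34 to 0.13. Relative to the melanin genes alone, Rlbp1 (0.13) and Rrh (0.072) in vehicle and Stra6 (0.12) and Rrh (0.19) in TMB turned positive against wild type. Relative to the whole level, values near 0 changed sign without single libraries: against wild type, Rlbp1 (-0.38 to 0.19) and Rrh (-0.38 to 0.038) in vehicle and Stra6 (-0.25 to 0.10) and Rrh (-0.18 to 0.089) in TMB, and in TMB against vehicle Rlbp1 (-0.52 to 0.058), Rgr (-0.24 to 0.20), Ttr (-0.25 to 0.10), Rdh10 (-0.12 to 0.26) and Rrh (-0.089 to 0.32). The fitted difference of each member against wild type kept its direction under all alternatives run, except that of Stra6 above.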
